A study of Mus musculus with 11 samples.

Results

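The genes described here are 9 genes that carry, export or store lipid in microglia, the resident macrophages of the central nervous system: Apoe, Lpl, Abca1, Abcg1, Plin2, Pltp, Nr1h3, Fabp5 and Soat1. They were taken by symbol from a table of 39017 Ensembl genes, and every one of the 9 was found and was abundant enough to test. Ribosome-bound RNA came from spinal cords of healthy females of strain C57BL/6 that carried RiboTag, an epitope tag on a ribosomal protein that Cre switches on, so that ribosomes of the chosen cells can be pulled down with their RNA. Both genotypes carried Tmem119-Cre/ERT2, a Cre driven by the microglial gene Tmem119 that needs tamoxifen to act. In the conditional knockout (cKO, libraries 2, 4, 5, 6 and 7) the same Cre deleted Kdm6a, the X-linked gene of a demethylase of histone H3 lysine 27, and the other 6 libraries (WT, 8, 9, 13, 15, 16 and 17) were labelled wildtype. Age and tamoxifen dosing were not given in the sources used here. Nor do the labels tie each library to its own animal, and p-values measure only the spread between these libraries. Where values of single libraries are listed, they follow this numerical order.

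As background, microglia take up cholesterol and fatty acids when they clear myelin and dead cells. Excess sterol activates the liver X receptors, of which Nr1h3 encodes LXR alpha, and these raise the transporters ABCA1 and ABCG1, which load cholesterol and phospholipid onto apolipoprotein E for export. What is not exported is esterified by SOAT1 and kept in lipid droplets coated by PLIN2. Apoe and Lpl are among the genes that rise in microglia around plaques and lesions in mouse models, and Apoe is also made by astrocytes.

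Apoe was the member with the highest level and fell in cKO, while the droplet coat gene Plin2 and the phospholipid transfer gene Pltp rose. The fatty acid binding protein gene Fabp5 also passed the test as lower in cKO, with groups that overlapped. The transporters Abca1 and Abcg1, the receptor gene Nr1h3, the lipase gene Lpl and the esterifying enzyme gene Soat1 did not pass. Of the 9 genes 2 were therefore higher and 2 lower at an adjusted p under 0.05 in edgeR's quasi-likelihood F test, against a background of 1.86% of all 16025 tested genes called higher, 2.43% called lower and 4.29% called in either direction. In 3 of the 9 (Apoe, Plin2 and Pltp) no cKO library overlapped any WT library, as was so for 4.16% of all genes tested. The median log2 fold change (cKO minus WT) of the 9 was 0.29, beside -0.01 over all genes tested. These 9 genes were chosen with earlier results of these data known, so their shares beside the background are descriptions and not a test.

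The sequence just upstream of the annotated start is shown for the 3 members whose groups did not overlap, 1 that fell and 2 that rose. Each is the 250 bases before the start given by RefSeq on GRCm38.p6, the assembly also called mm10, read 5' to 3' along the gene's own strand. They are the minus strand of chr7:19699189-19699438 for Apoe, of chr4:86670060-86670309 for Plin2 and of chr2:164857709-164857958 for Pltp. Capitals mark matches to the motifs searched on both strands.

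Apoe: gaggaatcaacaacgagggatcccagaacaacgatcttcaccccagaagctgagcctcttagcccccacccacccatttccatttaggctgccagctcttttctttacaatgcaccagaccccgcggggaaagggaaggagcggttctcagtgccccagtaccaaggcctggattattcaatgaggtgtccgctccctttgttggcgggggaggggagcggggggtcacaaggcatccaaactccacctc

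Plin2: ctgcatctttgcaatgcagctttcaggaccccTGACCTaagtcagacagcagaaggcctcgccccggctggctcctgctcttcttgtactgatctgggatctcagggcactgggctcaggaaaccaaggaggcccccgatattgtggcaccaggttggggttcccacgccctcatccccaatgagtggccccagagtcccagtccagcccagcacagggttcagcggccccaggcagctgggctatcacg

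Pltp: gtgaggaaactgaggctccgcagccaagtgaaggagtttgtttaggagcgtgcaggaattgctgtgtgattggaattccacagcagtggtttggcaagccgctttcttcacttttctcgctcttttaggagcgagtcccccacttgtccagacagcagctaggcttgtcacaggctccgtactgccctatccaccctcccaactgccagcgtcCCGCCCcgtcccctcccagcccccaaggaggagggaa

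The motifs were the TATA box TATAAA, the GC box GGGCGG, the nuclear receptor half-site AGGTCA, its direct repeat with a 4-base spacer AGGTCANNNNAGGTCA (the spacing that LXR with its partner RXR prefers) and its direct repeat with a 1-base spacer AGGTCANAGGTCA. Among 32851 mouse promoters of this length the shares with a match were 12.4%, 32.7%, 14%, 0.0152% and 0.0335%. The half-site is part of both repeats. The Apoe window held none of these motifs, Plin2 held 1 half-site on the opposite strand at -218 to -213 from the start, and Pltp held 1 GC box on the opposite strand at -37 to -32. Abca1, not printed, held a TATA box at -29 to -24 and a GC box at -163 to -158 and at -97 to -92, and Soat1 and Nr1h3 held none. The Nr1h3 window lies 7718 bases inside the 5' end of the GENCODE gene. Lpl, Abcg1 and Fabp5 had no sequence in the promoter table. These matches are descriptions of letters and no measurement here bears on binding. Only the exact letters were searched, so a window without a match, that of Abca1 for the repeats included, may still hold a variant of the motif.

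Library totals ran from 28620584 to 40943004 counts. Kdm6a itself had 6.31 ± 1.53 CPM (SD, n = 5; CPM are counts scaled to a common library size) in cKO and 9.59 ± 1.87 CPM (SD, n = 6) in WT, with overlapping ranges, a log2 fold change of -0.61 with an SE of 0.25 (edgeR adjusted p = 0.193). It passed only when libraries were scaled to the summed microglial markers, at -0.90 (edgeR adjusted p = 0.0219). That scaling was chosen after the data were seen and gave a median of -0.31 over all genes. It called 2720 genes lower, beside 389 in the main test. Of the marker lists, that of 12 microglial genes had the highest summed level, at 35781 to 37565 CPM in cKO and 26409 to 33318 CPM in WT. Aif1 was the only one of them listed at 0. Sums over different genes do not measure the share of each cell type. Of 11 tested microglial markers 7 were higher in cKO and none lower (median log2 fold change 0.33), beside 1.86% of all genes tested called higher. Neuron and astrocyte markers were present in both groups and were highest in WT13, WT16 and WT17, where neuron markers summed to 2561, 2080 and 3021 CPM against 1290 to 1586 CPM in the other libraries. Oligodendrocyte precursor markers were highest in the same libraries, at 216, 155 and 197 CPM against 119 to 154 CPM in the others. Pericyte and smooth muscle markers were highest in WT13 and WT17, at 130 and 91.8 CPM. Not every list followed this order: oligodendrocyte markers were lowest in WT16 (4749 CPM) and highest in WT17 (6136 CPM). Schwann cell markers were lowest in WT13 (555 CPM) and highest in WT17 (874 CPM). 

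Apolipoprotein E is the main lipid carrier protein of the central nervous system. Its gene (ENSMUSG00000002985, mm10 chromosome 7, 19696109 to 19699188, minus strand) had 1174, 782, 886, 1404 and 973 CPM in the cKO libraries. The WT libraries had 2197, 2081, 2051, 2238, 1753 and 2194 CPM. Every cKO library was below every WT library, and the cKO libraries were spread wider, with cKO4 lowest and cKO6 highest. The means were 1044 ± 248 CPM in cKO (SD, n = 5) and 2086 ± 178 CPM in WT (SD, n = 6), a level 2.00-fold higher in WT (log2 fold change -0.998, 95% interval -1.26 to -0.74; edgeR adjusted p = 7.36e-05). In bulk RNA of this kind, fewer cells of a type and less RNA per cell cannot be told apart. Apoe ranked 31 among all genes by mean CPM in WT and 98 in cKO. The call held in all 23 alternative analyses, with log2 fold changes from -1.30 to -0.91 and adjusted p from 1.43e-15 to 0.0381.

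**Figure D1:**
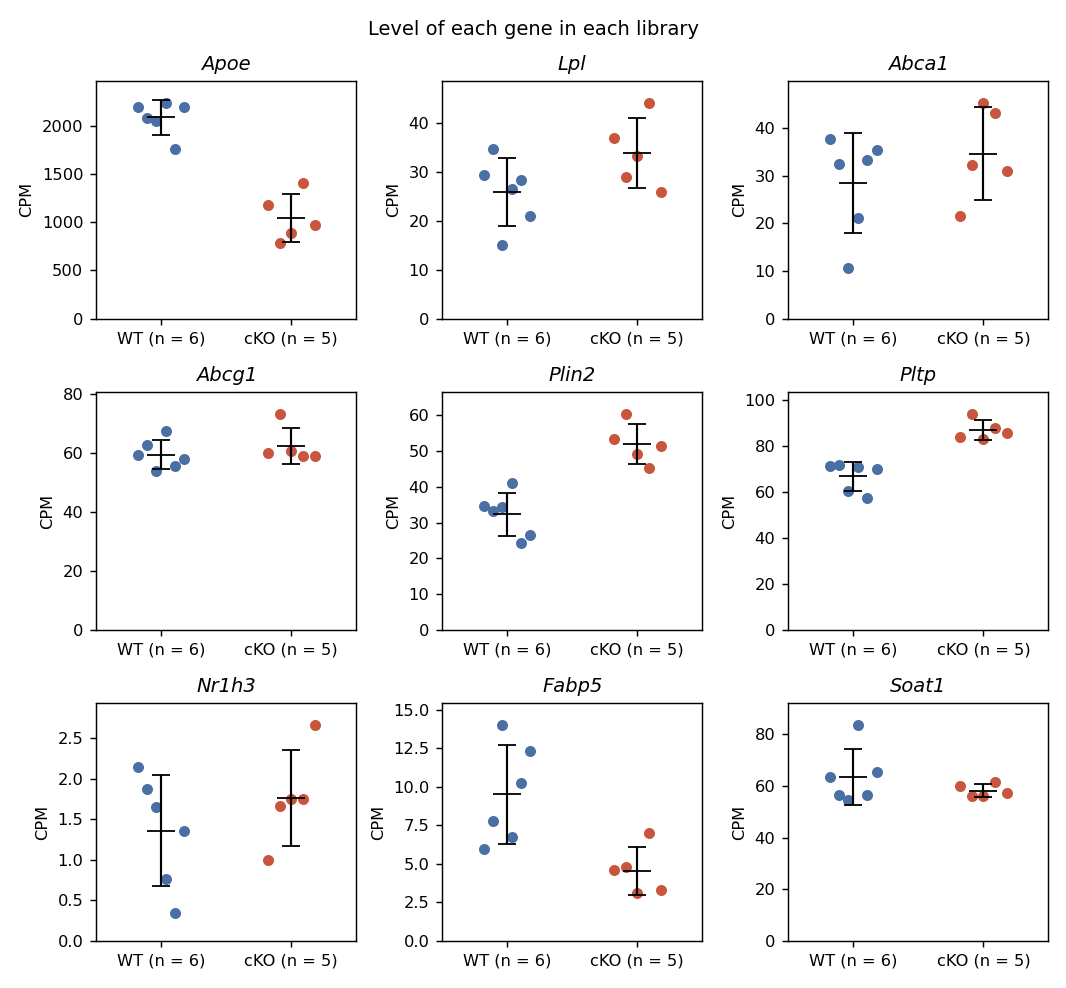
CPM (y axes from 0) of each of the 9 genes in the 6 WT and 5 cKO libraries; points are libraries, bars the mean and SD. The Apoe points of cKO, 782 to 1404, lie below those of WT, 1753 to 2238, and the Plin2 and Pltp points of cKO lie above those of WT.

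Because astrocytes also express Apoe, their markers are set beside it. The summed level of 15 astrocyte markers, all detected, was 1514 to 1746 CPM in cKO and 1580.4 to 2319 CPM in WT, which overlap. None of the 15 passed the test (median log2 fold change -0.12), with Atp1b2 the most abundant of them. With the mean of the astrocyte markers as a covariate, chosen after the data were seen, the Apoe difference was -1.04 (SE 0.17; edgeR adjusted p = 0.00786). Without WT13, WT16 and WT17 together it was -1.06 (SE 0.19; edgeR adjusted p = 0.0381). Markers of border-associated macrophages, another source of Apoe, summed to 96.6 to 138 CPM in cKO and 77.2 to 122 CPM in WT; nearly all of it was Stab1, and Lyve1 and Pf4 were listed at 0. Monocyte and neutrophil markers summed to 3.69 to 11.4 CPM in cKO and 3.48 to 19.0 CPM in WT, with Ly6c2 and Retnlg at 0.

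**Figure D2:**
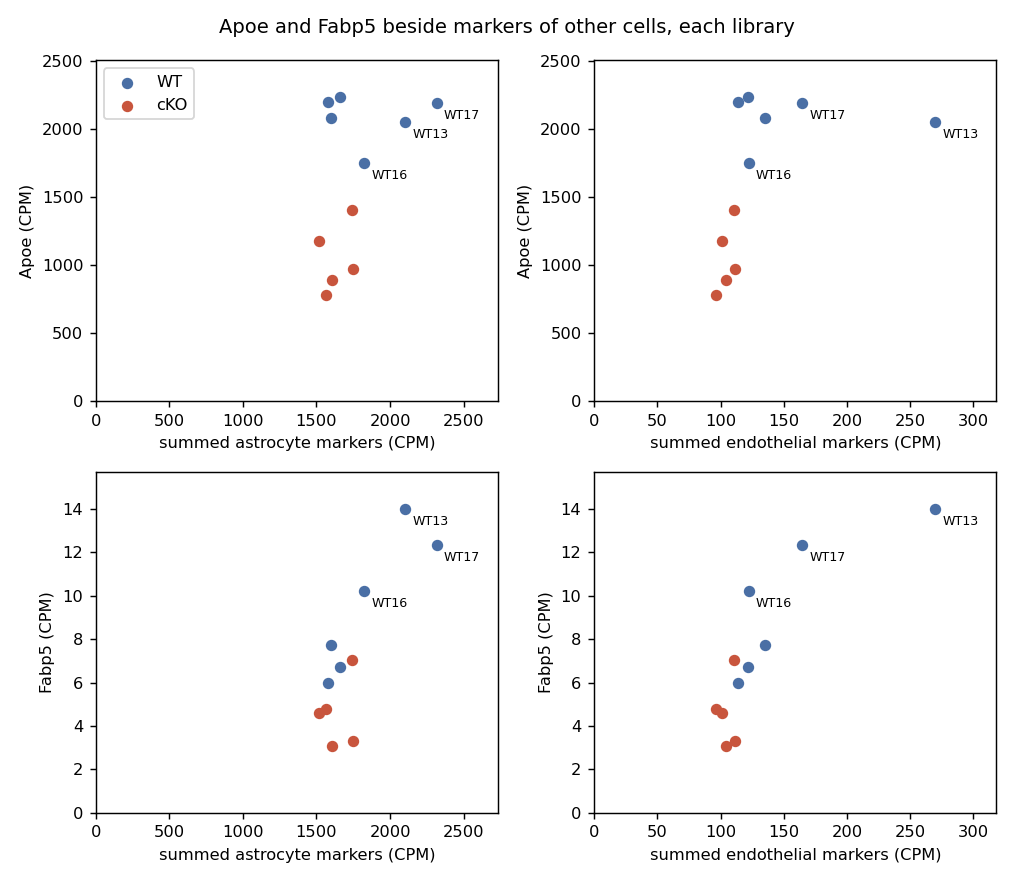
Level of Apoe (upper panels) and Fabp5 (lower panels) in CPM against the summed CPM of astrocyte markers (left) and endothelial markers (right), 1 point per library, cKO and WT by colour. WT13, WT16 and WT17, named in the panels, lie to the right of most libraries; they are the highest for Fabp5, at 10.2 to 14.0 CPM, but not for Apoe.

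Perilipin 2 coats lipid droplets and protects the stored lipid from lipases. Plin2 (ENSMUSG00000028494, mm10 chromosome 4, 86648386 to 86670060, minus strand) had 53.3, 60.5, 49.3, 45.2 and 51.4 CPM in the cKO libraries. The WT libraries had 34.6, 33.1, 34.4, 41.0, 24.4 and 26.6 CPM. The lowest cKO library, cKO6, was above the highest WT library, WT15. The means were 51.9 ± 5.65 CPM in cKO (SD, n = 5) and 32.4 ± 6.04 CPM in WT (SD, n = 6), a level 1.60-fold higher in cKO (log2 fold change 0.68, 95% interval 0.40 to 0.96; edgeR adjusted p = 0.00354). The call held in all 23 alternatives, from 0.40 to 0.76 in log2 fold change. The smallest value, 0.40 (edgeR adjusted p = 0.0417), came from scaling the libraries to the summed microglial markers, a choice made after the data were seen that moves the median of all genes by -0.30.

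Soat1 encodes the acyltransferase that esterifies cholesterol for storage. It (ENSMUSG00000026600, mm10 chromosome 1, 156424525 to 156474331, minus strand) had 59.9, 56.2, 56.0, 61.4 and 57.4 CPM in the cKO libraries, and a lowest, median and highest value of 54.6, 60.1 and 83.6 CPM in WT. The narrow cKO range lay within the wider WT range, with WT8, WT15 and WT17 above every cKO library and WT13 below every one. The log2 fold change was -0.12 (95% interval -0.36 to 0.11; edgeR adjusted p = 0.644), so the interval reaches neither a rise of the size seen in Plin2 nor a fall of the size seen in Apoe. Without WT15, the highest library, the difference was -0.028. Scaled to the microglial markers it passed, at -0.41 (edgeR adjusted p = 0.0154), beside a median of -0.31 over all genes under that scaling.

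The phospholipid transfer protein moves phospholipid between lipoprotein particles. Pltp (ENSMUSG00000017754, mm10 chromosome 2, 164839518 to 164857711, minus strand) had 84.1, 94.1, 83.0, 87.7 and 85.9 CPM in the cKO libraries. The WT libraries had 71.3, 71.7, 60.3, 70.8, 57.6 and 70.2 CPM. All cKO libraries were above all WT libraries, and WT13 and WT16 were the lowest. The means were 86.9 ± 4.38 CPM in cKO (SD, n = 5) and 67.0 ± 6.30 CPM in WT (SD, n = 6), a level 1.30-fold higher in cKO (log2 fold change 0.38, 95% interval 0.18 to 0.57; edgeR adjusted p = 0.0224). Pltp shares 495 exon bases with Ctsa, the gene of the lysosomal protein cathepsin A on the opposite strand, which held 283434 counts over all libraries beside 28251 for Pltp. Ctsa rose too, from 680 ± 57.6 CPM (SD, n = 6) to 862 ± 14.4 CPM (SD, n = 5), a log2 fold change of 0.34 (edgeR adjusted p = 0.00644). The strand setting used in counting was not given in the sources used here. How many reads the genes share was not tested.

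The Pltp call was lost in 6 of 23 alternatives, all with the same direction. It was 0.35 (edgeR adjusted p = 0.0719) without cKO4, 0.37 (edgeR adjusted p = 0.0522) without cKO6 and 0.34 (edgeR adjusted p = 0.0602) without WT16. It was 0.28 (edgeR adjusted p = 0.145) without WT13, WT16 and WT17 together, 0.29 (edgeR adjusted p = 0.0546) with library totals in place of TMM, and 0.08 (edgeR adjusted p = 0.574) when scaled to the microglial markers, where Ctsa was at 0.05.

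The ABC transporters export cholesterol, ABCA1 to lipid-poor apolipoproteins and ABCG1 to formed particles. Abca1 (ENSMUSG00000015243, mm10 chromosome 4, 53030787 to 53159895, minus strand) had 21.5, 32.2, 45.3, 43.1 and 30.9 CPM in the cKO libraries, and a lowest, median and highest value of 10.5, 32.8 and 37.6 CPM in WT. The lowest library of all was WT13, and cKO2 was the lowest of its group, so the groups were wide and overlapped. The log2 fold change was 0.29 (95% interval -0.35 to 0.92; edgeR adjusted p = 0.696), an interval that holds both no difference and a difference as large as that of Plin2. The difference was 0.11 without WT13 and 0.17 without cKO5, the libraries at the ends of the range, and 0.11 to 0.42 over all single libraries left out.

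Abcg1 (ENSMUSG00000024030, mm10 chromosome 17, 31057675 to 31117988, plus strand) differed least between the genotypes. It had 60.0, 73.4, 60.9, 59.0 and 59.0 CPM in the cKO libraries, and 53.9, 58.7 and 67.6 CPM as the lowest, median and highest value in WT. Apart from cKO4, every cKO library lay inside the WT range. The log2 fold change was 0.07 (95% interval -0.14 to 0.28; edgeR adjusted p = 0.809), so a change as large as that of Apoe or Plin2 lies outside its interval. Its sign was negative in 3 alternatives, among them scaling to library totals and to the microglial markers.

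**Figure D3:**
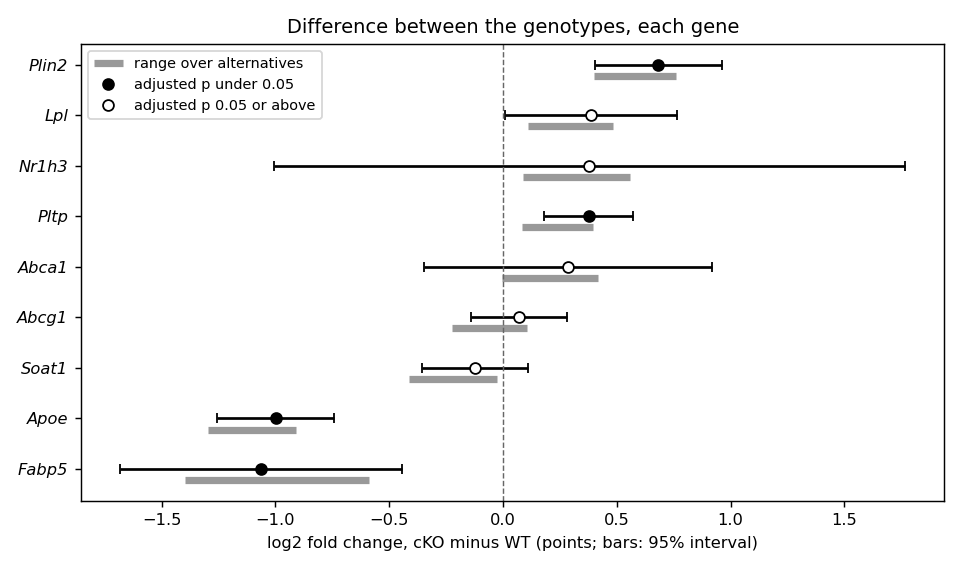
Log2 fold change (cKO minus WT, x axis) of each of the 9 genes with its 95% interval, filled points for those past the threshold and open points for the others. Apoe and Fabp5 lie left of 0 and Plin2 and Pltp right of it, while the intervals of Abca1, Abcg1, Soat1 and Nr1h3 cross 0 and that of Lpl starts just above it; the Nr1h3 interval, -1.01 to 1.77, is the widest.

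Nr1h3, whose product LXR alpha drives Abca1, Abcg1 and Apoe, was the member of lowest level. The gene (ENSMUSG00000002108, mm10 chromosome 2, 91184061 to 91202834, minus strand) held 12 to 94 counts per library. It had 1.00, 1.67, 1.75, 1.75 and 2.67 CPM in the cKO libraries, and a lowest, median and highest value of 0.348, 1.50 and 2.14 CPM in WT. The groups overlapped, with WT16 lowest and cKO7 highest of all. The log2 fold change was 0.38 (95% interval -1.01 to 1.77; edgeR adjusted p = 0.848), an interval that holds a fall as large as that of Apoe and a rise of the same size. The related receptor gene Nr1h2 (LXR beta), named after its values were seen, had mean levels of 65.4 CPM in cKO and 62.6 CPM in WT (difference in log2 of 0.06, SE 0.14; edgeR adjusted p = 0.882), and the partner receptor gene Rxra, named likewise, had 194 and 179 CPM (0.11, SE 0.09; edgeR adjusted p = 0.601).

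Lipoprotein lipase hydrolyses the triglyceride of lipoproteins. Lpl (ENSMUSG00000015568, mm10 chromosome 8, 68880491 to 68907448, plus strand) had 36.9, 28.8, 33.3, 44.1 and 25.7 CPM in the cKO libraries, and a lowest, median and highest value of 15.1, 27.4 and 34.7 CPM in WT. The highest library was cKO6 and the lowest WT13, and the groups overlapped. The log2 fold change was 0.39 (95% interval 0.01 to 0.77), with an unadjusted edgeR p of 0.0455 and an edgeR adjusted p of 0.261. Lpl passed in none of the 23 alternatives, whose values ran from 0.11 to 0.48.

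FABP5 carries fatty acids inside the cell. Fabp5 (ENSMUSG00000027533, mm10 chromosome 3, 10012548 to 10016607, plus strand) had 4.58, 4.78, 3.08, 7.02 and 3.29 CPM in the cKO libraries. The WT libraries had 5.96, 7.75, 14.0, 6.72, 10.2 and 12.3 CPM. The groups overlapped through cKO6, which was above WT8 and WT15, and the 3 highest libraries were WT13, WT17 and WT16. The means were 4.55 ± 1.57 CPM in cKO (SD, n = 5) and 9.50 ± 3.23 CPM in WT (SD, n = 6), a level 2.09-fold higher in WT (log2 fold change -1.06, 95% interval -1.68 to -0.44; edgeR adjusted p = 0.0429). Those 3 WT libraries were also the highest in neuron and astrocyte markers, and WT13 and WT17 in endothelial markers, at 270 and 164 CPM against 96.8 to 135 CPM in the other 9 libraries. Of 10 tested endothelial markers 2 passed as lower in cKO, Pecam1 (log2 fold change -0.58) and Kdr (-1.30), while Cldn5 was listed at 0. The log2 fold change was negative in all 10, with a median of -1.08 beside -0.01 over all genes tested.

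Without WT13, WT16 and WT17 the Fabp5 difference was -0.59 (SE 0.34; edgeR adjusted p = 0.602). These were the libraries of highest Fabp5 level, so leaving them out had to shrink the difference, and its cause was not tested. With a covariate built from neuron, astrocyte and oligodendrocyte markers the difference was -0.73 (edgeR adjusted p = 0.271), and with the astrocyte markers alone -0.70 (edgeR adjusted p = 0.321). Leaving out single libraries also ended the call, at -1.07 (edgeR adjusted p = 0.0818) without cKO2, -1.08 (edgeR adjusted p = 0.0804) without cKO4, -0.95 (edgeR adjusted p = 0.120) without cKO5 and -0.97 (edgeR adjusted p = 0.100) without cKO7. Without WT13, WT16 and WT17 in turn it was -0.92, -1.04 and -0.97 (edgeR adjusted p = 0.0952, 0.0902 and 0.0936). With limma-voom it was -1.10 (adjusted p = 0.0841). The Fabp5 counts were low, 88 to 612 per library, and the processed pseudogene Fabp5l2, a copy of the same sequence family, was listed at 0.

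The libraries did not deviate from their group means in the same way for every member. Within cKO, cKO6 was the highest library for Apoe, Lpl, Fabp5 and Soat1 and the lowest for Plin2. In contrast, cKO4 was the highest for Plin2, Pltp and Abcg1 and the lowest for Apoe. Within WT, WT13 was lowest for Abca1, Lpl, Soat1 and Abcg1, by -1.31, -0.72, -0.20 and -0.14 in log2 CPM from the WT mean, and highest for Fabp5 (0.63). WT16 was lowest for Apoe, Plin2, Pltp and Nr1h3, by -0.25, -0.39, -0.21 and -1.60.

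**Figure D4:**
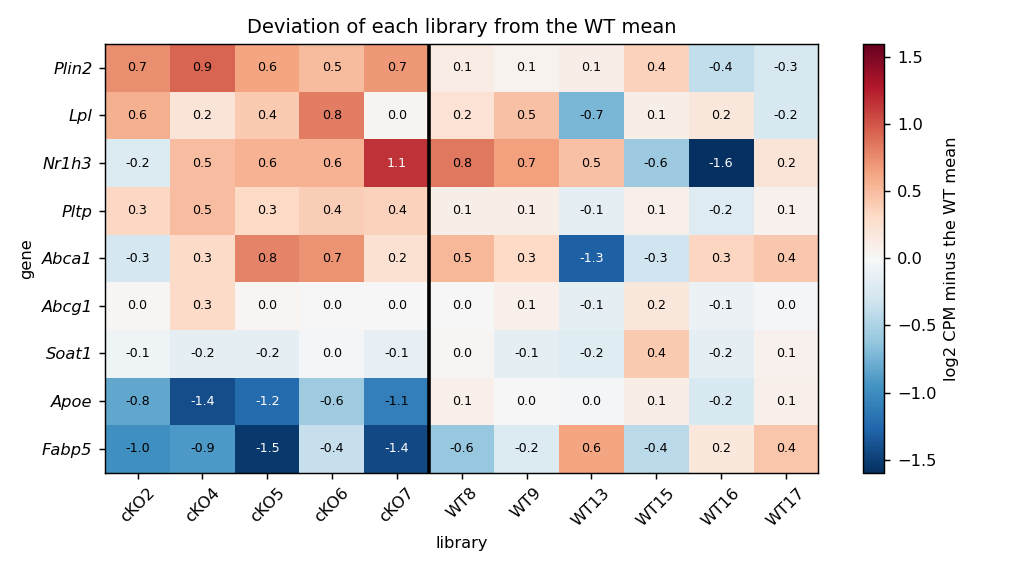
Log2 CPM of each gene (rows) in each library (columns, cKO left of the line, WT right) minus the WT mean of that gene, in colour and figures. The Apoe row is below 0 in all 5 cKO libraries and the Plin2 and Pltp rows are above 0 in all 5, while the lowest single WT cells are Nr1h3 in WT16 (-1.6) and Abca1 in WT13 (-1.3).

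Levels between genes were compared per length, in RPKM (CPM divided by the summed exon length in kilobases). In WT the order was Apoe (976), Pltp (26.1), Plin2 (9.21), Abcg1 (8.16), Soat1 (6.47), Abca1 (2.74), Fabp5 (2.66), Lpl (2.47) and Nr1h3 (0.540). The ranges over libraries overlapped between the neighbours Plin2 and Abcg1, Abcg1 and Soat1, Abca1 and Fabp5, and Fabp5 and Lpl, so their order is not beyond the spread. In cKO Apoe (488), Pltp (33.9) and Plin2 (14.8) again led, and the ranges overlapped only between Abca1 (3.34) and Lpl (3.22) and between Fabp5 (1.28) and Nr1h3 (0.703). Plin2 and Abcg1 therefore overlapped in WT and were apart in cKO. These lengths sum all annotated exons of a gene, so a gene with long, little-used exons is placed too low.

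The genes whose profiles over all 11 libraries were most like those of Apoe and Plin2 were found among 9685 genes of average log2 CPM of at least 3, by the root mean square difference of log2 CPM after centring; the measure includes the difference between genotypes. Nearest to Apoe were Cnr2 (0.160, the cannabinoid receptor CB2), Lyz2 (0.180, lysozyme), Uba7 (0.185, the enzyme that activates the ubiquitin-like ISG15), Plau (0.192, urokinase) and Pfkfb4 (0.198, a regulator of glycolysis). Their own log2 fold changes ran from -1.20 for Lyz2 to -0.88 for Cnr2. Nearest to Plin2 were Fgf11 (0.115), the co-chaperone gene Bag3 (0.135), Pik3r5 (0.146, a regulatory subunit of phosphoinositide 3-kinase), Khdrbs3 (0.180, an RNA-binding protein) and the transcription factor gene Cebpa (0.182). Their log2 fold changes ran from 0.62 for Cebpa to 0.83 for Khdrbs3.

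The other genes of lipid handling were read from 9 lists with 159 genes in all, the members left out. The lists were chosen with earlier results of these data known, so their share of calls is a description and not a test against the background. Of 128 listed genes that were tested 5 rose, 7 fell and 116 did not pass, so 9.38% were called beside the 4.29% of all genes. Their median log2 fold change was -0.02, and 13 genes, Trem2 among them, were listed at 0 in every library and are treated as not measured.

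Among 13 tested uptake receptors 1 rose and 2 fell (median -0.33). Sorl1, a sorting receptor that binds Apoe-containing particles, fell from 128 ± 24.2 CPM (SD, n = 6) to 56.9 ± 14.4 CPM (SD, n = 5), with ranges of 109 to 172 and 38.5 to 78.4 CPM and a log2 fold change of -1.17 with an SE of 0.16 (edgeR adjusted p = 0.000135). The related sorting receptor Sort1 fell less (-0.33; edgeR adjusted p = 0.0124), and Lrpap1, a chaperone of lipoprotein receptors, rose (0.31; edgeR adjusted p = 0.0276). The large receptor gene Lrp1 (0.13) and Mylip (-0.04), whose product degrades the LDL receptor, did not pass. The Sorl1 call held in all 23 alternatives. The Sort1 call was lost only without cKO4 (-0.30; edgeR adjusted p = 0.0539). The Lrpap1 call was lost in 8, among them without cKO2 (0.27), cKO4 (0.31), cKO5 (0.32), WT9 (0.30) or WT16 (0.31) and, at 0.01, under microglial marker scaling.

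None of 6 tested apolipoproteins other than the member Apoe passed (median -0.06), with Apod at 0.20 and the receptor gene Apobr at -0.13. None of 7 oxysterol enzymes passed (median -0.08), with Hsd3b7 at -0.19 and Ebp at -0.08. Of 16 ABC transporters other than the members, 2 fell and none rose (median -0.34). Those that fell were Abcc1 (-0.59, edgeR adjusted p = 0.0234) and the phosphatidylcholine exporter gene Abcb4 (-0.60, edgeR adjusted p = 0.0287). Abca9 (0.27) did not pass here but was called higher with DESeq2 (0.26; adjusted p = 0.0214), without cKO2 (0.31) and without WT15 (0.29). Leaving out cKO5, cKO6 or WT16 ended the Abcc1 call, at -0.60, -0.46 and -0.57. Leaving out cKO4, cKO6, cKO7, WT8 or WT9 ended the Abcb4 call, at -0.50, -0.54, -0.61, -0.56 and -0.57. Abcc1 also lost it without WT13, WT16 and WT17 together (-0.60; edgeR adjusted p = 0.0600).

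Of 14 nuclear receptors and cofactors 1 passed (median -0.19), the corepressor gene Nrip1, which rose (0.53; edgeR adjusted p = 0.0407), while the coactivator gene Ncoa3 (-0.24) did not pass here but was called lower in 6 of 23 alternatives, at -0.24 to -0.53. Of 14 other LXR targets 1 rose and 1 fell (median -0.03). Mertk, a receptor for the uptake of dead cells, rose from 380 ± 66.7 CPM (SD, n = 6) to 583 ± 47.3 CPM (SD, n = 5), with no overlap and a log2 fold change of 0.62 with an SE of 0.11 (edgeR adjusted p = 0.00101), and Arl4c, a small GTPase gene, fell (-0.37; edgeR adjusted p = 0.0117). Scd2 (0.03) and Tnfaip8l2 (-0.04) did not pass. The Mertk call held in all 23 alternatives, and that of Arl4c was lost only without cKO6 (-0.32; edgeR adjusted p = 0.0542). The Nrip1 call was lost in 12, among them without cKO2 (0.54), cKO4 (0.56), cKO5 (0.45), cKO6 (0.53), WT15 (0.53), WT16 (0.52) or WT17 (0.51), and at 0.31 without WT13, WT16 and WT17 together.

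**Figure D5:**
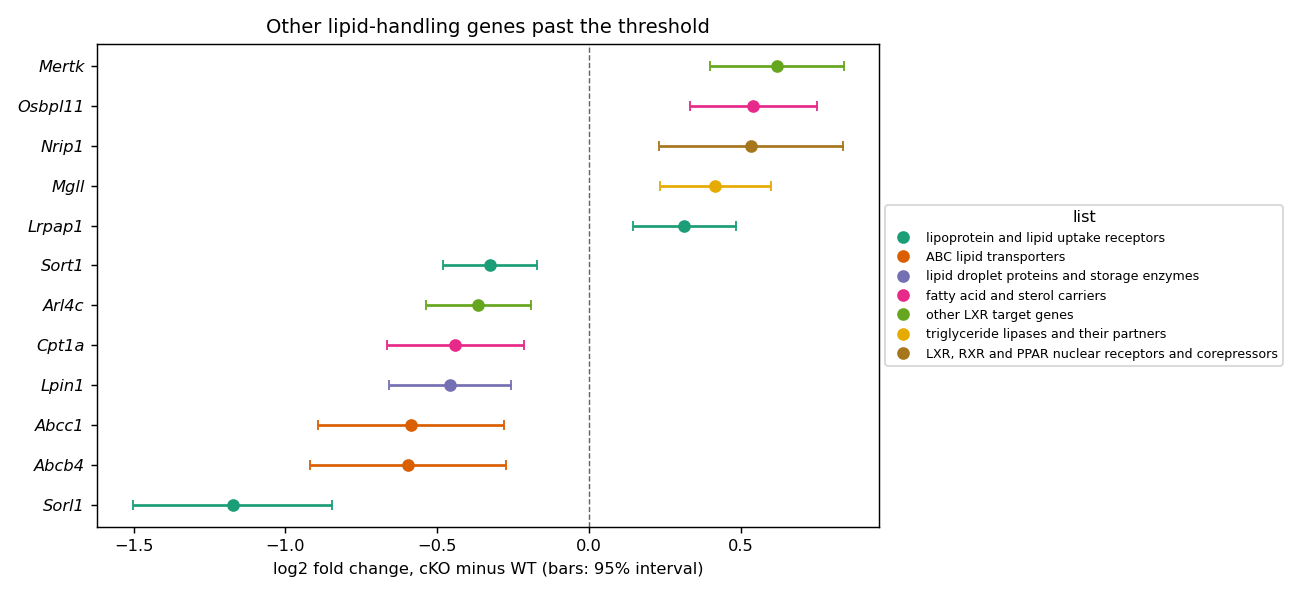
Log2 fold change (cKO minus WT, x axis) with its 95% interval of the 12 genes past the threshold among 128 tested genes of lipid handling, coloured by list. Sorl1, at -1.17, lies farthest from 0, and Mertk, at 0.62, is the farthest of the 5 that rose.

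Of 24 droplet and storage genes only Lpin1 passed (median 0.04), beside the member Plin2. Lpin1, a phosphatidate phosphatase gene of triglyceride synthesis, fell from 92.8 ± 8.47 CPM (SD, n = 6) to 67.6 ± 5.99 CPM (SD, n = 5), by a log2 fold change of -0.46 with an SE of 0.10 (edgeR adjusted p = 0.00672), and it kept its call in all 23 alternatives. Rab7 (0.08) and Hsd17b11 (0.02) did not pass. Of 15 lipases and partners the monoglyceride lipase gene Mgll rose (0.42; edgeR adjusted p = 0.00685), and Abhd12 (-5.9e-05) and Daglb (-0.16) did not pass (median 0.09). Daglb was called lower in 5 of 23 alternatives, at -0.24 to -0.44. Of 21 carriers Osbpl11, an oxysterol-binding protein family gene, rose (0.54; edgeR adjusted p = 0.00220) and Cpt1a, the gate of fatty acid entry into mitochondria, fell (-0.44; edgeR adjusted p = 0.0215), while Npc1 (0.14) and Npc2 (0.05) did not pass (median 0.04). The calls of Mgll and Osbpl11 were lost only under microglial marker scaling, at 0.12 and 0.25. The Cpt1a call was lost without cKO2 (-0.40), without cKO4 (-0.42), without WT13, WT16 and WT17 together (-0.41) and with either marker covariate (-0.37 and -0.36).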

How the data were processed

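A Direct-zol kit was used for RNA and a stranded KAPA kit with mRNA enrichment for the libraries, per the labels' protocols. Of the upstream steps, bcl2fastq 2.17, FastQC, Trimmomatic and mm10 are listed in the submitters' processing notes. Aligner, counting tool and strand setting were not given in the sources used here. Whole-number counts, not normalized, were deposited for each Ensembl gene and library in 1 table. Between 73.5 and 83.9% of the counts from 1 to 200 in each library were even numbers. Counts may therefore exceed the number of RNA fragments read, which was not tested. Symbols were matched for 37607 of 39017 identifiers.

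Counts were fitted with edgeR 4.0.16 in R 4.3.3 (filterByExpr, minimum count 10 and minimum total 15; TMM; robust quasi-likelihood F test of genotype over all 11 libraries), with Benjamini-Hochberg adjustment over 16025 genes and a threshold of 0.05. The SE is the log2 fold change divided by the square root of F, and log2 CPM used a prior count of 2. The most similar pair of libraries, WT8 and WT15, differed by a chi-square of 17.1 per gene, so all were kept. Coordinates and exon lengths are from GENCODE M21. Alternatives used limma 3.58.1 and DESeq2 1.42.0, other scalings and filters, halved counts, marker covariates and left-out libraries. The same script was tested on simulated counts. The members and gene lists were chosen with earlier results of these data known. Named genes are the members, Kdm6a, each list's genes past the threshold and the 2 most abundant others of each list (2 of which are not reported here by name), and the 5 genes with profiles nearest to Apoe and to Plin2. Named outside this rule were Ctsa, which overlaps Pltp, the pseudogene Fabp5l2, and markers at 0 or leading their list. So were Pecam1 and Kdr, endothelial markers past the threshold, and Trem2 as a gene at 0. Nr1h2 and Rxra, also outside the rule, were chosen after their values were seen.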

Additional observations from a re-analysis of the deposited data

Results flagged for a closer look

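Of 18 sets of values tested (9 genes in each genotype), 2 held a library far from its group, where chance gives about 1 in 20. In WT, Apoe was low in WT16, at 10.78 log2 CPM against 11.00 to 11.13 in the other 5 libraries, a gap of 0.642 of the group's range. In cKO, Abcg1 was high in cKO4, at 6.20 log2 CPM against 5.88 to 5.93 in the other 4, a gap of 0.855 of the range. Without WT16 the Apoe difference was -1.04 (edgeR adjusted p = 6.27e-05), and without cKO4 that of Abcg1 was 0.0040.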

How the results depend on the processing

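No paired analysis was made because the labels name no pairs of cKO and WT libraries, whose replicate numbers do not overlap. Apoe and Plin2 kept their direction and their call in all 23 alternatives, and Lpl, Abca1 and Abcg1 were past the threshold in none. Nr1h3 passed in none of 22, since DESeq2 gave it no adjusted p. The genes called higher in cKO, 298 in all, became 479 with DESeq2, 164 without WT13, WT16 and WT17 together and 61 under microglial marker scaling, and 170 to 388 when single libraries were left out. The genes called lower, 389 in all, became 683 with DESeq2, 601 with library totals and 2720 under microglial marker scaling, and 264 to 557 when single libraries were left out. Higher calls made up 25.2% of all calls with library totals and 2.19% under marker scaling. Of the 9 lipid genes 1 was called higher with library totals, under marker scaling and without the 3 WT libraries, and 1 was called lower with limma-voom, with either marker covariate and without the 3 WT libraries. Leaving out single libraries gave 1 to 2 in each direction.

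The calls that changed among the 9 were Pltp at 0.29 with library totals, 0.084 under marker scaling and 0.28 without the 3 WT libraries (0.34 to 0.40 with single libraries left out), Fabp5 at -1.10 with limma-voom, -0.73 and -0.70 with the marker and astrocyte covariates and -0.59 without the 3 WT libraries (-1.27 to -0.92 with single libraries left out), and Soat1, which passed under marker scaling at -0.41. The sign changed for genes that did not pass in the main test: under microglial marker scaling Abca1 was -0.0063, Abcg1 -0.22, Apod -0.095, Lrp1 -0.17, Abca9 -0.029, Scd2 -0.28, Rab7 -0.20, Hsd17b11 -0.26, Npc2 -0.24 and Npc1 -0.14, and of these Rab7, Hsd17b11 and Npc2 were then called lower (edgeR adjusted p = 0.0259, 0.0350 and 0.00310). The same scaling also called lower Kdm6a (-0.90), Apobr (-0.42), Mylip (-0.33), Abhd12 (-0.29), Daglb (-0.44), Ncoa3 (-0.53), Tnfaip8l2 (-0.33), Hsd3b7 (-0.49) and Ebp (-0.37). Daglb and Ncoa3 were called lower as well with library totals (-0.24 and -0.32), the marker covariate (-0.25 and -0.29), the astrocyte covariate (-0.26 and -0.29) and without the 3 WT libraries (-0.28 and -0.34), and Ncoa3 with DESeq2 (-0.24). With library totals Abcg1 was -0.012, Scd2 -0.056, Hsd17b11 -0.055 and Npc2 -0.031. Without the 3 WT libraries Abcg1 was -0.022, Rab7 -0.060, Hsd17b11 -0.13 and Npc2 -0.070. With the marker covariate and the astrocyte covariate Rab7 was -0.031 and -0.037, Hsd17b11 -0.11 and -0.13, and Npc2 -0.054 and -0.061. Abhd12 was 0.0032 with limma-voom and 0.00030 with halved counts. With single libraries left out, Mylip ran from -0.096 to 0.0084, Abhd12 from -0.041 to 0.017, Tnfaip8l2 from -0.073 to 0.0043, Hsd17b11 from -0.034 to 0.079 and Npc2 from -0.0028 to 0.087. The cause of these changes was not tested. Nr1h3 and Fabp5 had the lowest counts and the widest SE of the 9 (0.67 and 0.30); with halved counts the SE was 0.65 and 0.30.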

Other observations

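Ratios of counts within a library need no scaling between libraries. The ratio of Apoe to Abcg1 counts was 10.7 to 23.8 (median 16.5) in the 5 cKO libraries and 31.4 to 38.0 (median 35.1) in the 6 WT libraries, so every cKO library was below every WT library. The ratio of Plin2 to Soat1 counts, the droplet coat against the esterifying enzyme, was 0.736 to 1.08 (median 0.890) in cKO and 0.406 to 0.631 (median 0.518) in WT, again without overlap but with cKO above. The ratio of the exporters Abca1 and Abcg1 was 0.357 to 0.744 (median 0.525) in cKO and 0.195 to 0.634 (median 0.556) in WT, which overlap. These pairs were chosen after the values were seen and were not tested, and a ratio shows unequal change, not which gene of the pair moved.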
